A study of Rattus norvegicus with 10 samples.

Results

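The cytochrome P450 genes of families 1 to 4 were followed in the livers of rats on a high-fat diet, with and without mulberry leaf. A gene was taken as a member where the platform annotation gave exactly 1 symbol for a probe set, and that symbol began with Cyp, a family number from 1 to 4 and a subfamily letter. Cyp4a1 was left out by the same rule. This gave 41 genes of the 14217 genes with such a probe set, and 45 probe sets. Each gene was represented by its probe set with the highest mean log2(intensity + 16) over all 10 arrays, and 4 genes had 2 probe sets to choose from. The 4 P450 probe sets that carry several symbols, such as those of Cyp2b1 and Cyp2b2 or of Cyp2d1 and Cyp2d5, were not used, so no value is given for those genes or for Cyp4a2. All 41 members were found in RefSeq by gene identifier under the same symbol. Closely related P450 transcripts can also share signal on probe sets of 1 symbol, and the share was not measured here.

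The animals were 10 Wistar/ST rats, all fed a high-fat diet. The 5 mulberry rats were given dried mulberry leaf by stomach tube, as a powder suspension, at a daily dose of 500 mg per kg of body weight, and for the 5 control rats this dose was 0. Livers were taken after 7 weeks, and the RNA of each rat was hybridised to 1 Affymetrix array. The labels give 1 dose and 1 time, and the sex and age of the rats are not given in the sources used here. No group without the high-fat diet was analysed here, so the values bear on mulberry leaf within that diet only.

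Cytochrome P450 enzymes are heme proteins of the endoplasmic reticulum that insert an oxygen atom into their substrates, using electrons passed on by NADPH-cytochrome P450 reductase. Families 1 to 3 hold the main drug and toxin oxidising enzymes of the liver, and many of them are induced through the aryl hydrocarbon receptor (Ahr), the constitutive androstane receptor (Car) or the pregnane X receptor (Pxr). Family 4 hydroxylates fatty acids and eicosanoids, mostly at the end of the chain, and its CYP4A genes are classic targets of the fatty acid sensor Ppar-alpha. In rat liver several CYP2 and CYP3 genes also differ between the sexes under the control of growth hormone.

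None of the P450 genes passed the test between mulberry and control rats. Of the 41 members, 36 had a mean above the 40th percentile of all probe sets, an intensity of 61.1, and were tested with limma. None of the 36 reached a Benjamini-Hochberg adjusted p of 0.05, and their adjusted p was 0.9999 throughout. The same was true of the whole array, where 0 of 18625 probe sets, or 0%, passed. At an unadjusted p under 0.05, 1 member was counted, Cyp2c12, against 325 probe sets or 1.74% of those tested. No member had groups that did not overlap, while 64 probe sets or 0.344% did.

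The mean was higher with mulberry in 17 of the 36 and lower in 19, against 52.5% higher over all probe sets tested. Shifting every array to a common median turned this split into 13 higher and 23 lower, quantile normalization into 15 and 21, and array weights into 20 and 16. Leaving out mulberry rat 4 gave 10 higher and 26 lower, and leaving out control rat 3 gave 22 and 14. Differences are given on the log2(intensity + 16) scale, with positive values where mulberry was higher. Their median was -0.0096, with quartiles of -0.068 and 0.052, and lay between -0.037 and 0.021 over the alternatives run, beside a median of 0.0075 over all probe sets. In 27 of the 36 members the difference was smaller than 0.1 in size. The median size of the difference was 0.066 over the members and 0.092 over all probe sets. The SD between rats of the same group had a median of 0.17 over the members and 0.26 over all probe sets, and 26 of the 36 members lay under the latter. In bulk liver RNA, fewer cells of a type and less RNA per cell cannot be told apart.

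**Figure D1:**
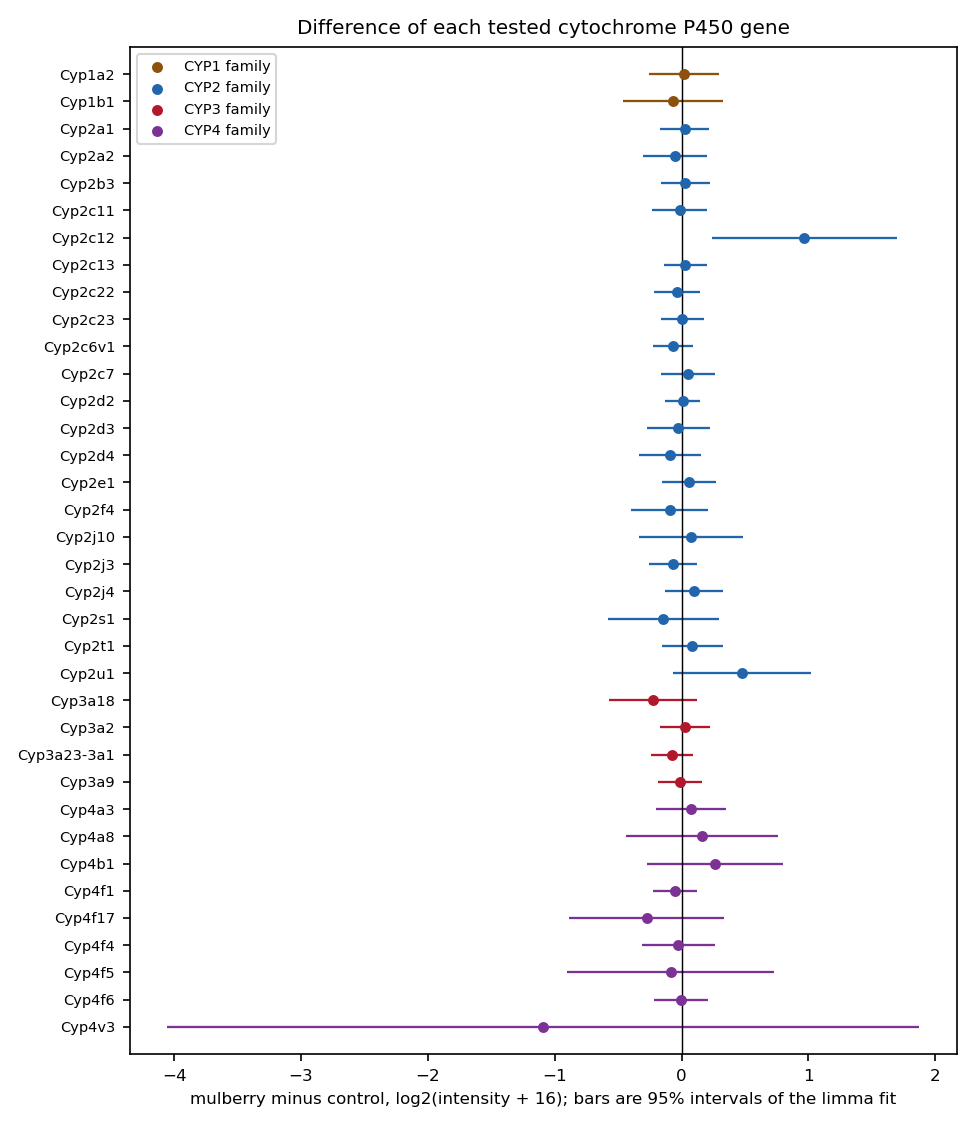
Difference of each of the 36 tested P450 genes (points, mulberry minus control, log2(intensity + 16)) with the 95% interval of the limma fit (bars), coloured by family, 5 rats per group. The interval of Cyp2c12 alone lies apart from 0, and that of Cyp4v3 is the widest.

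The 5 members under the filter were Cyp1a1, Cyp2a3, Cyp2b12, Cyp2b21 and Cyp2g1. Cyp1a1, the classic Ahr target of family 1, gave 5.93 ± 2.37 in control rats and 6.88 ± 3.30 in mulberry rats (mean intensity ± SD, n = 5 each). Cyp2a3, an enzyme known mainly from the airways, gave 35.7 ± 21.8 and 29.2 ± 16.8. Cyp2b12, known from skin, gave 15.4 ± 14.3 and 7.27 ± 7.14. Cyp2b21 gave 23.7 ± 23.7 and 9.31 ± 8.95, and Cyp2g1, an olfactory tissue enzyme, gave 47.7 ± 18.9 and 39.4 ± 8.55. All 5 overlapped between the groups, and without the filter their unadjusted limma p lay between 0.156 and 0.731. With these genes included, 18 of 41 members had a higher mean with mulberry and the median difference was -0.015.

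Family 1 showed no difference past the test in either of its 2 tested genes. Cyp1a2, an Ahr target that oxidises caffeine and aromatic amines, gave 16838, 14874, 22211, 16210.1 and 14868 in control rats 1 to 5. In mulberry rats 1 to 5 it gave 16954, 15244, 14847, 21864 and 17067. Control rat 3 and mulberry rat 4 stood highest, and the groups overlapped over nearly their whole range. Cyp1b1, an Ahr target found mainly outside hepatocytes, gave 100.4 ± 24.1 and 93.9 ± 12.7. With Cyp2s1, also reported to answer to Ahr, at 107 ± 27.1 and 95.1 ± 22.7, the 3 tested Ahr-responsive members had differences between -0.14 and 0.019 and none was called. Of the Ahr targets outside the P450 families, 2 were tested and neither was called. Tiparp, a gene of the Ahr pathway, differed by 0.17 ± 0.10 (SE), or 0.11 by the median of its probe sets. Nqo1, a quinone reductase, differed by 0.23 ± 0.41, with a range from -0.052 without control rat 5 to 0.63 when each rat was left out.

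The 21 tested genes of family 2 had a median difference of 0.0097, with 12 higher and 9 lower and none called. Among the CYP2A genes, Cyp2a1, a testosterone hydroxylase, gave 9981 ± 645 and 10183 ± 1153. Cyp2a2, a related and male-predominant hydroxylase, gave 16374 ± 1400 and 15962 ± 2859. Cyp2b3, the constitutive CYP2B gene of rat liver, gave 24350 ± 2379 in control and 24876 ± 2395 in mulberry rats. Each of these differences was smaller than the SD of either group.

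Cyp2c12, the female-predominant steroid hydroxylase of the CYP2C cluster, had the largest upward difference of all members. It gave 893, 1023, 387, 1238 and 602 in control rats 1 to 5 and 1036, 2637, 1934, 1751 and 861 in mulberry rats 1 to 5. Mulberry rats 2, 3 and 4 were above every control rat, while mulberry rats 1 and 5 were within the control range. The means were 829 ± 338 and 1644 ± 718, a difference of 0.97 ± 0.34 on the log2(intensity + 16) scale (95% interval 0.24 to 1.70). The unadjusted limma p was 0.0134, the adjusted p was 0.9999 and the two-sided exact permutation p was 0.0635 over 252 assignments, whose smallest possible value is 0.00794. Leaving out each rat in turn gave 0.73 to 1.17. Its SD between rats, 0.66, was also among the 5 widest of the members.

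The other sex-dependent members had smaller differences, between -0.22 and 0.050. The remaining female-predominant genes tested were Cyp2c7, a retinoic acid hydroxylase at 29012 ± 2974 and 30136 ± 4068, Cyp2a1 as given above, and Cyp3a9 at 19687 ± 1722 and 19462 ± 1475. Cyp2c11, the main male-specific steroid hydroxylase, gave 24114, 23670.3, 27532, 27594 and 24818 in control rats and 27979.6, 20544, 24282, 30120.3 and 24299 in mulberry rats. Mulberry rat 2, which had the highest Cyp2c12 value, had the lowest Cyp2c11 value, and mulberry rat 4 the highest. Its low level was not particular to Cyp2c11, since mulberry rat 2 was also lowest for Cyp2c6v1, Cyp2c13, Cyp3a2 and Cyp2e1, though not for Cyp2c23. Cyp2c13, a male-predominant neighbour, gave 22755 ± 882 and 23318 ± 2357. None of the 4 female-predominant and 5 male-predominant members tested was called, with medians of 0.037 and -0.015. Across the 10 rats, Cyp2c11 and Cyp2c12 gave a Pearson r of -0.31 (permutation p = 0.388, adjusted 0.388 over the 3 pairs examined) and a Spearman rho of -0.13 (permutation p = 0.734, adjusted 0.734). Without the 2 rats farthest from the Cyp2c11 median r was -0.25, and after removing group means -0.36.

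These CYP2C genes lie together on chromosome 1, and the promoters of 4 are shown because Cyp2c12 had the smallest p of the members and the other 3 are its sex-dependent neighbours. The sequences are the 250 bases before the annotated start in RefSeq on build GRCr8, written 5′ to 3′ on the strand of the gene. Capitals mark matches, on either strand, to the basal promoter element TATAAA, to ATCAAT, the core site of the growth hormone-regulated hepatocyte factor HNF6, and to the nuclear receptor site AGGTCA.

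Cyp2c12, minus strand, chr1:248677035-248677284: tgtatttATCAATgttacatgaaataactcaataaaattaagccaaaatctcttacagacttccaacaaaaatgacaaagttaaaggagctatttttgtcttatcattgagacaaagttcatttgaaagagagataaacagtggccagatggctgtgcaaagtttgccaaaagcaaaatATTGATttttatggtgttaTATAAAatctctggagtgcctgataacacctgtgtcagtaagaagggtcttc

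Cyp2c11, plus strand, chr1:246174966-246175215: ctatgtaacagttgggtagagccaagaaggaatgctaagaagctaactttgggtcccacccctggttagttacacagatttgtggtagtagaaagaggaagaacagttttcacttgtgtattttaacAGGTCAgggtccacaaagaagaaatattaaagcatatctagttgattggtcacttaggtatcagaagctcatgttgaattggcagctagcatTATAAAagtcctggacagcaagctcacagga

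Cyp2c7, plus strand, chr1:247966144-247966393: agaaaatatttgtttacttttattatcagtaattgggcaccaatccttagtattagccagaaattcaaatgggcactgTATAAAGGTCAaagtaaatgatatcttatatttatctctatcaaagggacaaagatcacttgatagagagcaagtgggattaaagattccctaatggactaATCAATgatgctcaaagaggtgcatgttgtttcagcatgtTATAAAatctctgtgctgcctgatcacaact

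Cyp2c13, minus strand, chr1:248787189-248787438: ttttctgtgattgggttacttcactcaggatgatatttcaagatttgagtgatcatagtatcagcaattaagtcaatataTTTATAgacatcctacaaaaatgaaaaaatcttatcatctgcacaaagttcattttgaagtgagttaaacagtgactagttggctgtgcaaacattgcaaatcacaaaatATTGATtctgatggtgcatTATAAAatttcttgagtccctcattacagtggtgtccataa

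In this window Cyp2c12 held HNF6 core matches that begin 243 and 71 bases before the start and a TATA match 52 bases before it. Cyp2c13 held an HNF6 core match at 60 bases, and TATA matches at 41 and, on the other strand, at 170 bases. Cyp2c7 held an HNF6 core match at 71 bases, TATA matches at 31 and 172 bases, and a nuclear receptor match at 167 bases that shares 1 base with the latter TATA match. Cyp2c11 held a nuclear receptor match at 123 bases and a TATA match at 31 bases, and no ATCAAT in these letters.

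Of the 41 members, 35 had a promoter in the table. TATAAA was found in 10 of the 35, or 28.6%, against 12.9% of all 33469 promoters. ATCAAT was found in 5 (14.3%, against 7.10%) and AGGTCA in 12 (34.3%, against 14.1%). GCGTG, the core of the Ahr site, was found in 6 (17.1%, against 25.9%), namely in Cyp1b1, Cyp2t1, Cyp2u1, Cyp4f1, Cyp4f5 and Cyp4f6. GTTAAT, one arm of the HNF1 site, was found in 4 (11.4%, against 6.45%) and TTCNNNGAA, the STAT5 site, in 3 (8.57%, against 7.67%). Matches were counted on both strands and may overlap, and they describe letters only. Cyp1a1, Cyp2a2, Cyp2c6v1, Cyp4f4, Cyp4f17 and Cyp4v3 had no entry.

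The rest of the CYP2C genes were even between the groups. Cyp2c6v1, a phenobarbital-responsive drug oxidase, gave 32619.7, 32804, 35819, 34112 and 32766 in control rats and 35691, 27742, 31757, 32700.2 and 32794 in mulberry rats. Mulberry rats 2 and 3 were below every control rat and the other 3 mulberry rats lay within the control range, with a difference of -0.069 ± 0.073 (SE) and an unadjusted limma p of 0.36. The difference was -0.017 without mulberry rat 2, -0.046 without control rat 3, -0.11 without mulberry rat 1 and -0.13 after quantile normalization. Cyp2c22, a retinoic acid hydroxylase, gave 26779.8 ± 1793 and 26184 ± 2751. Cyp2c23, the main arachidonic acid epoxygenase of rat kidney, gave 22849 ± 1157 and 23010.2 ± 2248.

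The 3 CYP2D genes tested gave 1 higher and 2 lower means, and none was called. Cyp2d2, the main debrisoquine hydroxylase of the rat, gave 28856 ± 949 and 29081 ± 1768 and had the smallest SD between rats among the bright members, 0.071. Cyp2d3 gave 20282 ± 2342 and 20024 ± 3088. Cyp2d4, the CYP2D form found in brain, gave 1772 ± 51.4 and 1678 ± 263, so that the mulberry rats were more spread out than the control rats. Its second probe set differed by -0.14 ± 0.15.

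Cyp2e1, the ethanol-inducible oxidase that also handles ketone bodies and fatty acids, gave 29472, 28882, 36718, 30476 and 29644 in control rats. It gave 35467, 28164, 29569, 38036 and 30882 in mulberry rats. Control rat 3 and mulberry rats 1 and 4 were high and the other 7 rats lay close together, so the groups overlapped. Cyp2f4, a naphthalene-oxidising enzyme best known from lung, gave 2687 ± 323 and 2542 ± 505.

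The CYP2J genes, which make epoxides from arachidonic acid, showed no shared direction. Cyp2j4 gave 2684, 3638, 3669, 3212 and 3205 in control rats and 4088, 3411, 3193, 3369 and 3486 in mulberry rats. Control rat 1 was the lowest and mulberry rat 1 the highest, with a difference of 0.10 ± 0.11 (unadjusted limma p = 0.364, two-sided exact permutation p = 0.381). It was 0.030 without control rat 1 and 0.044 without mulberry rat 1. Cyp2j3 gave 5615 ± 447 and 5358 ± 422, with a second probe set at -0.061 ± 0.19, and Cyp2j10 gave 106 ± 17.3 and 113 ± 30.7. With Cyp2c11 and Cyp2c23, 5 epoxygenase members were tested, 3 higher and 2 lower, with a median of 0.0059 and none called.

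Cyp2u1, a fatty acid hydroxylase best known from brain and thymus, had the second smallest p of the members. It gave 170.4, 244, 87.6, 169 and 147 in control rats and 263, 188, 356, 189.9 and 165 in mulberry rats. Mulberry rats 1 and 3 were above all control rats, control rat 3 was the lowest of all, and the other 7 rats were mixed. The means were 164 ± 56.2 and 232 ± 78.1, a difference of 0.48 ± 0.25 (unadjusted limma p = 0.0798, adjusted p = 0.9999, two-sided exact permutation p = 0.143), and 0.29 to 0.62 when each rat was left out, with 0.29 without control rat 3. Cyp2t1 gave 1123 ± 102 and 1197 ± 147.

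The 4 CYP3A genes, steroid and drug oxidases regulated by Pxr, had a median difference of -0.044 with 3 lower, 1 higher and none called. Cyp3a18 gave 13240.4, 16627, 12077, 20541 and 14528 in control rats and 15018, 10547, 14870.2, 15296 and 10109 in mulberry rats. Mulberry rats 2 and 5 were below every control rat and control rats 2 and 4 above every mulberry rat, while the other 6 were mixed. Its difference was -0.22 ± 0.16 (unadjusted limma p = 0.185, two-sided exact permutation p = 0.270) and lay between -0.31 and -0.11 when each rat was left out, at -0.11 without control rat 4 and -0.14 without mulberry rat 5. Cyp3a23-3a1, the main dexamethasone-inducible form, gave 27199.5 ± 1504 and 25912 ± 2491, a difference of -0.073 ± 0.078, which was -0.027 without mulberry rat 2, -0.12 without mulberry rat 1 and -0.11 after quantile normalization. Cyp3a2, a male-predominant form, gave 24131 ± 1997 and 24712 ± 2972. These 4 members overlapped between the groups.

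Taken as the list of Car and Pxr-responsive members, Cyp2c6v1, Cyp3a18, Cyp3a2 and Cyp3a23-3a1 had a median difference of -0.071, and none of the 4 was called. Of 11 tested Car and Pxr targets outside the P450 families, 8 were lower and 3 higher, with a median of -0.20 (-0.061 with array weights) and none called. Ces2c, a carboxylesterase, gave 898 ± 135 and 703 ± 145, a difference of -0.36 ± 0.16 with an unadjusted limma p of 0.0411 and an adjusted p of 0.9999. Alas1, the rate-limiting enzyme of heme synthesis, gave 15193 ± 4887 and 10719 ± 2824, a difference of -0.49 ± 0.23, or -0.32 without mulberry rat 3. The summed intensity of the 12 genes of this list with a probe set did not overlap between the groups, at 74600 to 82696 in control and 62847 to 73594 in mulberry rats. Many lists were summed in this way, and the sums of all the others overlapped. The brightest genes weigh most in such a sum. Without Alas1 the sums overlapped, at 61350.4 to 71132 and 55281 to 62113, and so did they after quantile normalization, at 72897 to 86011 and 65597 to 74666.

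**Figure D2:**
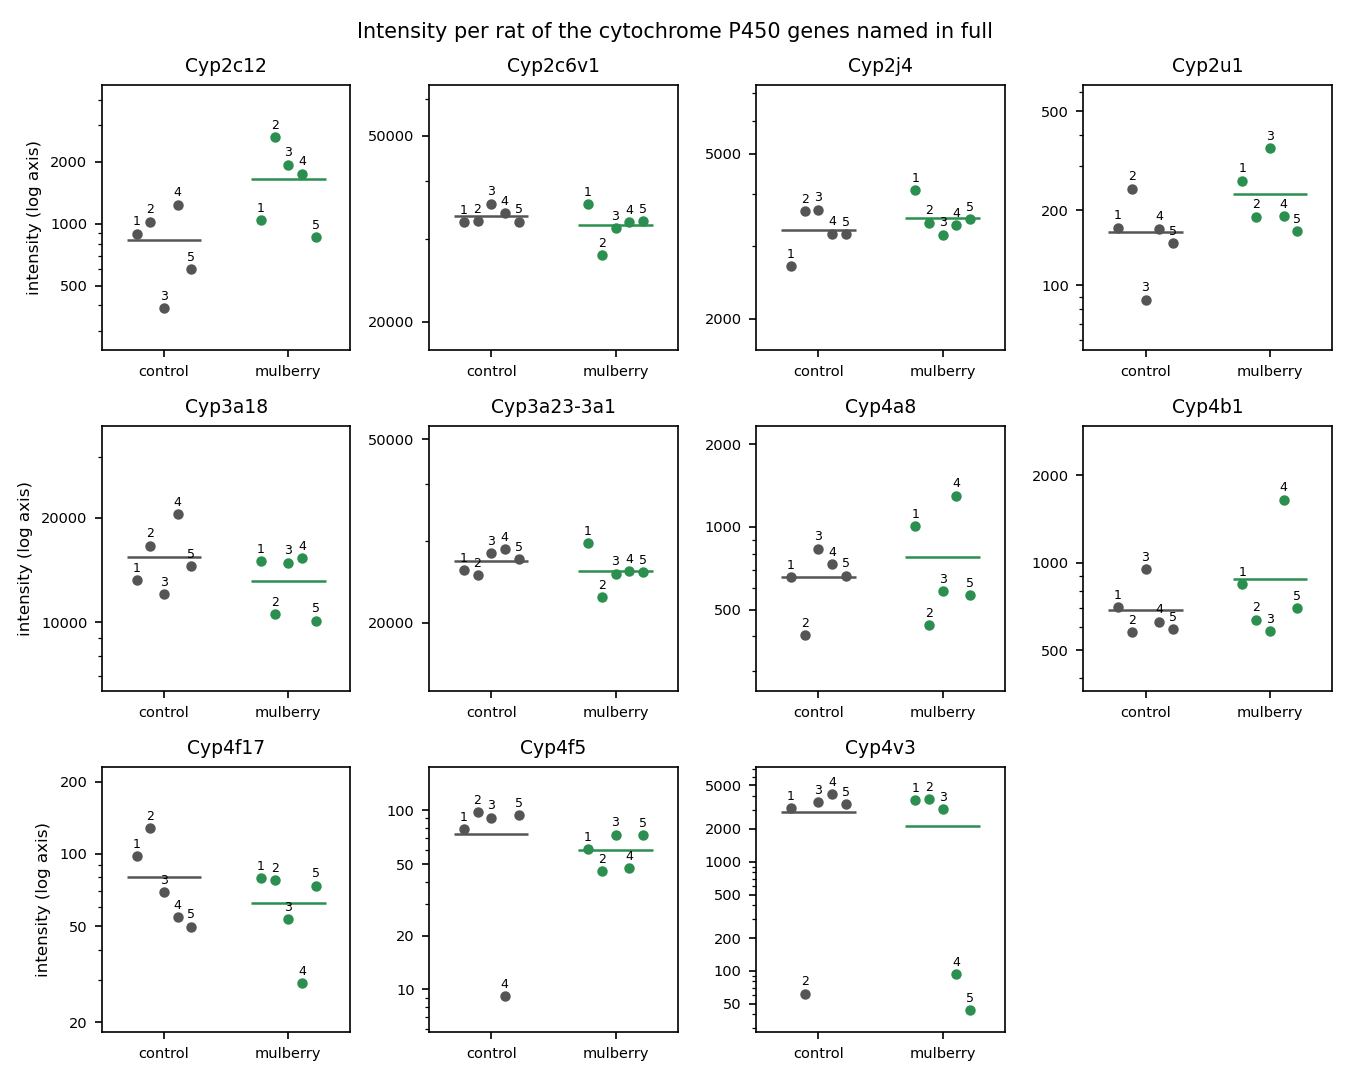
Intensity (log axis) in each rat of the 11 P450 genes with the smallest p or the largest SD between rats; each point is 1 rat with its number, and each line is the mean of 5 rats. Mulberry rats 2, 3 and 4 are above all control rats for Cyp2c12, and 3 rats from both groups are far below the rest for Cyp4v3.

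The 9 genes of family 4 varied most between rats, with a median SD of 0.47 against 0.23 in family 1, 0.16 in family 2 and 0.13 in family 3. Their median difference was -0.025, with 3 higher, 6 lower and none called. Of family 4 only Cyp4a3 and Cyp4f1 were in the brightest 2% of probe sets. Over all families the SD had a median of 0.14 in the 19 members that bright and 0.28 in the 17 others. Whether the spread of family 4 goes beyond its brightness was not tested. Cyp4a3, a Ppar-alpha target that hydroxylates fatty acids at the chain end, gave 14619, 15110.2, 18239.5, 16038 and 13258 in control rats. It gave 19144, 13505, 14861, 20542 and 14034 in mulberry rats. Mulberry rats 1 and 4 were above all control rats, and the other 3 were inside the control range.

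Cyp4a8, a further CYP4A gene, gave 655, 403, 834, 734 and 666 in control rats and 1007, 439, 584, 1301 and 565 in mulberry rats. Mulberry rats 1 and 4 were again above all control rats, and control rat 2 was the lowest. The difference was 0.16 ± 0.28 and lay between -0.050 and 0.33 when each rat was left out, turning negative without control rat 2 or mulberry rat 4. Its second probe set gave 0.24 ± 0.27. Cyp4b1, a fatty acid hydroxylase best known from lung, gave 702, 578, 950.4, 628 and 590.3 in control rats and 845, 637, 581, 1649.9 and 699 in mulberry rats. Mulberry rat 4 stood alone at the top and the other rats overlapped. The difference was 0.26 ± 0.25 (unadjusted limma p = 0.309, two-sided exact permutation p = 0.492) and was 0.012 without mulberry rat 4.

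The 5 CYP4F genes, which inactivate leukotrienes and hydroxylate long fatty acids, all had a lower mean with mulberry, by -0.27 to -0.0043, and none was called. Quantile normalization and array weights each left 4 of the 5 lower and 1 higher, Cyp4f6. Cyp4f17 gave 98.0, 128, 69.5, 54.4 and 49.8 in control rats and 79.5, 77.9, 53.5, 29.0 and 73.9 in mulberry rats. Control rats 1 and 2 were above all mulberry rats and mulberry rat 4 below all control rats, with a difference of -0.27 ± 0.28. That difference was -0.086 without mulberry rat 4, -0.11 without control rat 2 and -0.17 with a pseudocount of 64. Cyp4f5 gave 78.4, 97.6, 91.1, 9.21 and 93.8 in control rats and 60.8, 45.6, 73.0, 47.4 and 72.3 in mulberry rats. Control rat 4 stood alone at the bottom, and the other 4 control rats were all above the 5 mulberry rats. The difference was -0.086 ± 0.38, was -0.50 without control rat 4, and was 0.042, 0.021 and 0.030 without control rats 2, 3 and 5. With a pseudocount of 1 and no filter, added after the data were seen, it was 0.023, so that its sign also depended on the pseudocount. Cyp4f1 gave 22784 ± 972 and 22088 ± 2305, Cyp4f4 gave 7326 ± 1445 and 7118 ± 756, and Cyp4f6 gave 3644 ± 343 and 3635 ± 363. The list of 9 omega-hydroxylase members is the same as the tested members of family 4.

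Cyp4v3, a fatty acid omega-hydroxylase, split the 10 rats into a low and a high set that crossed the treatment groups. It gave 3113, 61.8, 3491, 4141 and 3356 in control rats 1 to 5 and 3654, 3719, 3046, 93.5 and 43.7 in mulberry rats 1 to 5. Control rat 2 and mulberry rats 4 and 5 lay between 43.7 and 93.5, and the other 7 rats between 3046 and 4141. The lowest of the 7 was 32.6 times the highest of the 3. The difference between the groups was -1.09 ± 1.37 (unadjusted limma p = 0.441, two-sided exact permutation p = 0.571) and ranged from -2.19 without control rat 2 to -0.17 without mulberry rat 5. The 3 low rats were 1 control rat and 2 mulberry rats, so the split did not follow the treatment labels.

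A second Cyp4v3 probe set placed the same rats in the same sets. It lay between 89.6 and 126 in control rat 2 and mulberry rats 4 and 5, and between 284 and 477 in the other 7, and its difference between groups was -0.60 ± 0.44. Gaps between neighbouring values of the 10 rats were counted where 2 or more rats lay on each side. A gap that set off only 1 rat was not counted. The widest such gap was 4.81 on the log2 scale for the first probe set, the widest of all 18625 probe sets tested. By this count the next widest gap on the array was 4.21, and 4 probe sets had a gap over 3. The next member by this count was Cyp2c12 with 0.51. In all, 52 probe sets were lower in exactly these 3 rats, and only the 2 Cyp4v3 probe sets were so by a gap over 1.

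The genes next to Cyp4v3 in the RefSeq order did not split in this way. Klkb1, the plasma prekallikrein gene on one side, lay between 12239 and 13373 in the 3 low rats and between 11346 and 13819 in the other 7. Fam149a, on the other side, lay between 657 and 1746 in the 3 low rats and between 927 and 1609 in the other 7 by its brighter probe set, and between 258 and 315 and between 223 and 358 by the dimmer one. The ranges of both neighbours overlapped.

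**Figure D3:**
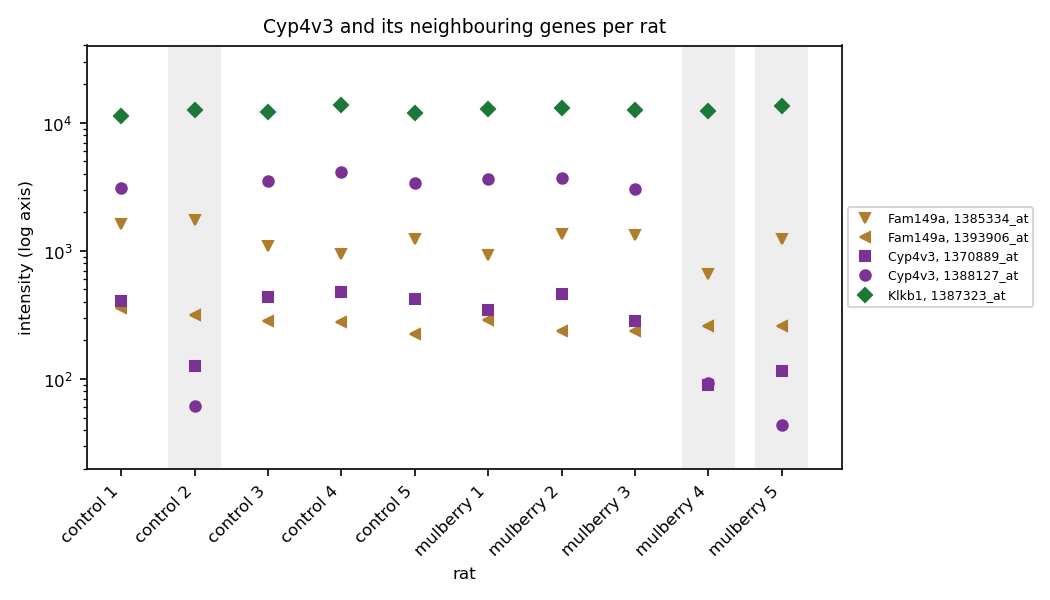
Intensity (log axis) per rat of both Cyp4v3 probe sets and of the neighbouring genes Klkb1 (1 probe set) and Fam149a (2 probe sets); grey bands mark control rat 2 and mulberry rats 4 and 5. Both Cyp4v3 probe sets drop in the banded rats, to between 43.7 and 126, and the neighbours do not.

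Many P450 genes were among the brightest features of the arrays. Of the 36 tested members, 19 lay in the brightest 2% of all 31042 probe sets, above an intensity of 8220.3. Their differences lay between -0.22 and 0.074, and the 95% intervals reached from -0.57 to 0.35. Their SD between rats had a median of 0.14, close to the 0.15 of the 602 other probe sets as bright, while the 17 remaining members had a median of 0.28. The bright members lay between 8859 and 38036, and the highest value of any array was between 40721 and 49485. Whether their signal was near the upper limit of the scanner was not tested.

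The median of the bright members moved up and down from rat to rat, largely with that of the other bright probe sets. Single members departed from it. Cyp2a2 was lowest in mulberry rat 4, at 12551, and highest in mulberry rat 3, at 19559.5. Cyp3a18 in control rat 3 was the lowest of the control rats, at 12077. The median deviation of the 19 from their own means was 0.16, 0.13 and 0.13 in mulberry rat 1, mulberry rat 4 and control rat 3. In the same rats the 602 other bright probe sets deviated by 0.099, 0.080 and 0.15. Mulberry rat 2 was lowest at -0.18, where the other bright probe sets stood at -0.040. With quantile normalization, an alternative added after the data were seen, the bright members stood at -0.13 in mulberry rat 2 and between -0.034 and 0.042 in the other 9 rats, and the other bright probe sets at 0.0081 in mulberry rat 2. The lower median of the bright members in mulberry rat 2 thus remained under that scaling, while that of control rat 3 was at -0.014.

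**Figure D4:**
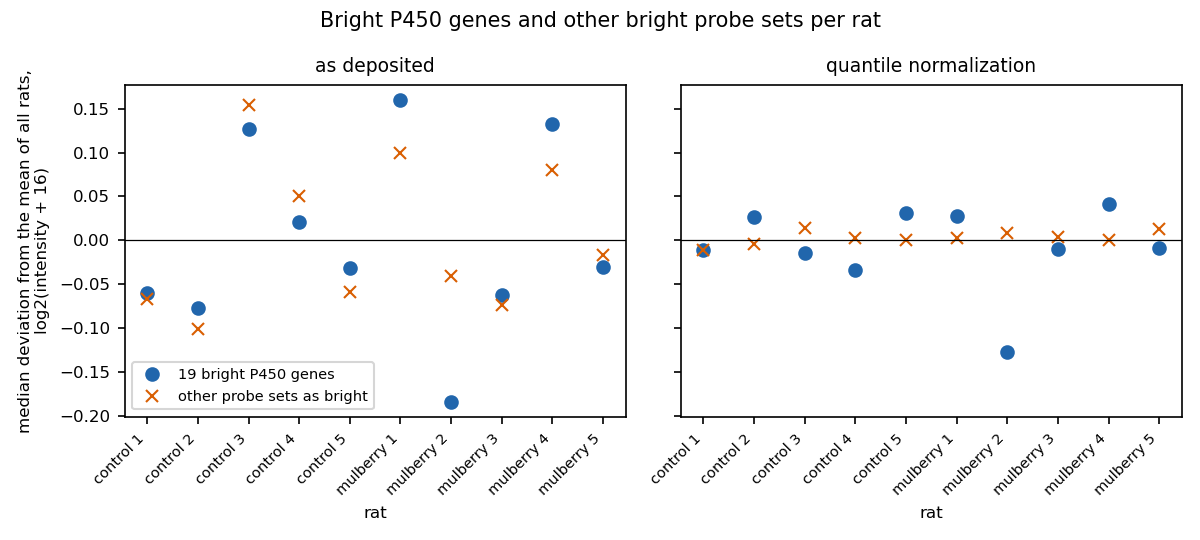
Median deviation per rat of the 19 bright P450 genes (circles) and of the 602 other probe sets as bright (crosses) from the mean of all 10 rats on the log2(intensity + 16) scale, as deposited (left) and after quantile normalization (right). Mulberry rat 2 has the lowest P450 median in both panels, -0.18 and -0.13.

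**Figure D5:**
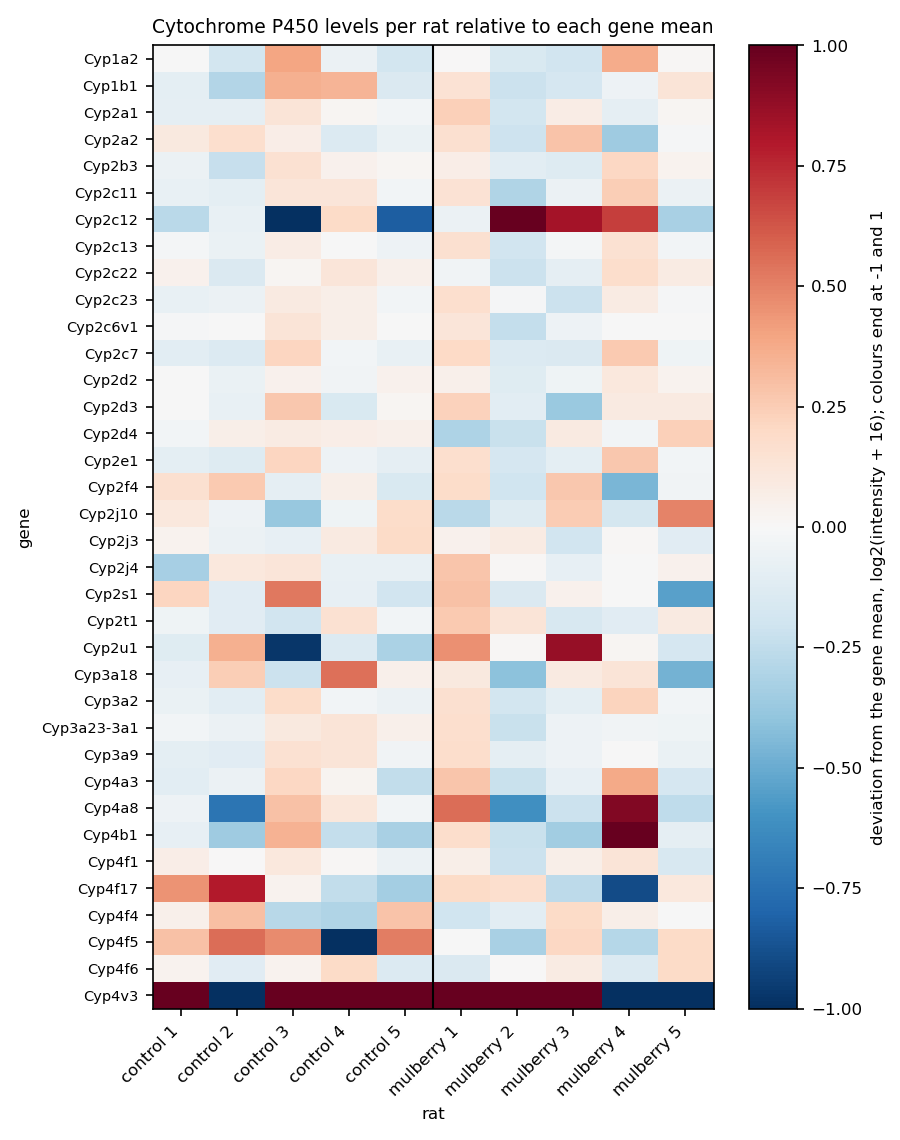
Deviation of each tested P450 gene (rows) from its mean over the 10 rats (columns; the line separates control from mulberry rats) on the log2(intensity + 16) scale, with colours ending at -1 and 1. Control rat 3 and mulberry rats 1 and 4 are above the mean for most bright genes, mulberry rat 2 is below it, and Cyp4v3 shows its 3 low rats.

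Pairs of members known for a shared regulation were compared across rats, and 3 of the 7 pairs considered had both genes among the tested members. Cyp2c11 and Cyp3a2, both male-predominant, gave a Pearson r of 0.90 over the 10 rats (permutation p = 5e-05, adjusted 0.00015) and a Spearman rho of 0.94 (permutation p = 0.00026, adjusted 0.00078). Without the 2 rats farthest from the Cyp2c11 median r was 0.82 over 8 rats (exact permutation p = 0.00613, adjusted 0.0184), and after removing group means it was 0.91. After quantile normalization r was 0.65 (permutation p = 0.0435, adjusted 0.0652) and rho 0.44 (permutation p = 0.202, adjusted 0.303), so the relation passed 0.05 as deposited and not under that scaling, an alternative added after the data were seen. Both genes are among the bright members described above.

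Cyp2e1 and Cyp1a2, both strongest in pericentral hepatocytes, gave a Pearson r of 0.89 (permutation p = 0.00083, adjusted 0.00124) and a Spearman rho of 0.75 (permutation p = 0.0170, adjusted 0.0254). Without the 2 rats farthest from the Cyp2e1 median r was 0.62 over 8 rats (exact permutation p = 0.0501, adjusted 0.0751). The relation was thus weaker and did not pass 0.05 without those rats, a setting with fewer rats and a narrower range. After removing group means r was 0.90 and rho 0.68 (permutation p = 0.0345, adjusted 0.0518). After quantile normalization r was 0.90 and rho 0.61 (permutation p = 0.0666, adjusted 0.20), so the rank correlation lost its adjusted p of 0.05 in both settings. Both genes are also among the bright members. In control rat 3 and mulberry rats 1 and 4 the bright members and the other bright probe sets stood above their means by the median. Whether the relation is particular to pericentral genes was not tested. The labels name no batch, so no value within a batch could be given.

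The partners of the P450 enzymes were level or uneven between rats. None of the 8 electron donors and partners tested was called, with 2 higher, 6 lower and a median of -0.026. Ephx2, the soluble epoxide hydrolase that clears P450 epoxides, gave 6427, 6510.1, 8611, 5061 and 2903 in control rats and 4386, 3621, 6873, 5050.4 and 347 in mulberry rats. Mulberry rat 5 was far below the rest, and the difference was -0.95 ± 0.64, or -0.20 without mulberry rat 5. Pgrmc2, a heme-binding partner, differed by -0.15 ± 0.17, with a range from -0.25 without control rat 5 to -0.034 without mulberry rat 4. Among 11 genes of heme synthesis and breakdown, 6 were higher, 5 lower and none called, with Alas1 as given above and Fech, which inserts iron into heme, at -0.12 ± 0.11, or -0.048 without control rat 4 and -0.18 without control rat 1.

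Among 21 tested receptors and regulators of P450 genes, 10 were higher and 11 lower, with a median of -0.035 and none called. Cux2, a female-predominant transcription factor of rat liver that is under growth hormone control, gave 43.4, 79.2, 66.3, 56.8 and 85.7 in control rats and 132, 188, 71.4, 145 and 148 in mulberry rats. Mulberry rats 1, 2, 4 and 5 were above every control rat and mulberry rat 3 was within their range. The difference was 0.87 ± 0.24 with an unadjusted limma p of 0.00302 and an adjusted p of 0.9999, and 0.75 to 1.06 when each rat was left out. With a pseudocount of 64 it was 0.61. The control values of Cux2 lay around the filter intensity of 61.1. No value was given for Cux2 with the stricter filter or with the median over its probe sets. Stat5b, which carries the growth hormone signal to the sex-dependent P450 genes, gave 281 ± 40.6 and 226 ± 25.4, a difference of -0.29 ± 0.13 with an unadjusted limma p of 0.0521 and an adjusted p of 0.9999.

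Of the 15 genes of other P450 families, 10 were tested, with 3 higher, 7 lower and a median of -0.058, and none was called. Cyp27b1, the activating hydroxylase of vitamin D, gave 57.3 ± 12.3 and 92.2 ± 31.0, a difference of 0.53 ± 0.22 with an unadjusted limma p of 0.0337 and an adjusted p of 0.9999, or 0.35 with a pseudocount of 64. Cyp8b1, the sterol hydroxylase that sets the cholic acid share of bile, differed by 0.24 ± 0.24, with a range from 0.098 without mulberry rat 1 to 0.39 without control rat 2. Families 1 to 4 had 1 of 36 genes at an unadjusted limma p under 0.05 and the other families 1 of 10, which was Cyp27b1. The control mean of Cyp27b1 lay under the filter intensity of 61.1, and it had no value with the stricter filter. No comparison was drawn from these counts.

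The samples carried the markers of liver tissue, and the marker levels overlapped between the groups. The summed intensity of 7 hepatocyte markers, among them Alb, Apoa1 and Ttr, lay between 206153 and 256817 in control and between 205840 and 263757 in mulberry rats. All 7 had a higher mean with mulberry, with a median of 0.063, against 5 of 7 after quantile normalization and 6 of 7 with a common median, and none was called. Of 6 tested pericentral and 8 tested periportal hepatocyte genes none was called, with medians of -0.016 and 0.0046. Of the other liver cell types, 6 of 7 Kupffer cell markers, 5 of 7 endothelial (3 of 7 with a common median), 5 of 7 stellate cell and 1 of 2 bile duct markers had a higher mean with mulberry. Of 6 lymphocyte and neutrophil markers 2 were higher, and of the kidney and the pancreas 2 of 5 markers each were above the filter. At an unadjusted limma p under 0.05, a share of 1.74% over all probe sets, stood 3 of these markers. S100a9, a calprotectin subunit abundant in neutrophils, gave 232 ± 31.0 and 132 ± 41.3, a difference of -0.77 ± 0.19 (unadjusted limma p of 0.00136, adjusted p of 0.9999). S100a8, its partner subunit, gave 86.3 ± 7.80 and 54.4 ± 24.0, a difference of -0.62 ± 0.27 (unadjusted limma p of 0.0389, adjusted p of 0.9999), or -0.36 without mulberry rat 3 and -0.37 with a pseudocount of 64. The mulberry mean of S100a8 lay under the filter intensity of 61.1, and S100a8 and S100a9 had no value with the stricter filter. Cd68, a macrophage marker, gave 678 ± 65.7 and 920 ± 241, a difference of 0.39 ± 0.18 (unadjusted limma p of 0.0454, adjusted p of 0.9999). The summed intensity of all lymphocyte and neutrophil markers with a probe set lay between 825 and 1370.1 in control and between 985 and 1249 in mulberry rats. That of the Kupffer cell markers lay between 8452 and 16989 and between 7327 and 15451. None of these markers was called, and their part in the values of the P450 genes was not tested. The median intensity of the arrays lay between 97.5 and 118.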

How the data were processed

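RNA from the livers of 5 control and 5 mulberry rats was hybridised to 1 array per rat, and each rat's group and number come from its sample title. The deposited table holds 1 linear signal intensity per rat for each of 31099 probe sets. MAS5 and affy are named in the submitters' processing notes, with no role or version, and detection calls were not used here. After trimming 2% of the deposited values the mean intensity was 500 on every array, so no further scaling was applied. The 57 control probe sets were left out.

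The deposited intensity was turned into log2(intensity + 16). Probe sets above the 40th percentile of the mean, 6.27 on the log2 scale, were kept, which left 18625 of 31042. The groups were compared two-sided with limma 3.58.1 in R 4.3.3 (lmFit, and eBayes with a trend), p-values were adjusted after Benjamini-Hochberg over these 18625, and a gene was called at an adjusted p under 0.05. The fit was also tested on simulated data with known changes, which were larger than any difference reported here. Single values used an exact permutation test over 252 assignments, and correlations 100000 permutations, or all of them for 8 rats. Tables were made in Python 3.11.15. Precision is limited by the number of arrays, and levels of different probe sets were not compared.

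Of the probe sets, 20826 carried 1 symbol, 436 several and 9780 none in the table used. Values are given per rat for the 8 tested members with the smallest unadjusted p, the 5 with the largest SD and any with groups that do not overlap, 11 genes in all, and for a few fixed members. Of each list outside the members, the 2 genes with the smallest p could be named. The members and the gene lists were chosen with earlier results of these data known. The alternatives were 2 other pseudocounts, 2 other filters, 2 other normalizations, a fit with no trend, weights per array, a block for the replicate number, the median over a gene's probe sets, leaving out each rat, and an adjusted p of 0.1. Promoters came from RefSeq, build GRCr8, and gene order from the same assembly.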

Additional observations from a re-analysis of the deposited data

Results flagged for a closer look

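Each group of 5 rats was checked for a value far from the other 4, by the gap to the nearest value over the range of the group on the log2(intensity + 16) scale, with a critical value of 0.71. Of 72 groups checked, 4 held such a value, where chance gives about 1 in 20. Cyp4v3 in control rat 2 was lowest at 61.8, with the nearest control rat at 3113. Cyp4f5 in control rat 4 was lowest at 9.21, with the nearest at 78.4. In control rat 3, Cyp2e1 was highest at 36718, with the nearest at 30476 (30475.5). In the same rat Cyp3a2 was highest at 27616, with the nearest at 23837, and the 602 other probe sets as bright as the bright P450 genes also stood above their means in that rat, by 0.15 on the log2 scale.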

How the results depend on the processing

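No member was called under any setting run, with 0 called at an adjusted p of 0.1 as well, and 1 or 2 members had an unadjusted p under 0.05. Over all probe sets 0 were called under every setting, and between 171 and 878 had an unadjusted p under 0.05. The count of members with groups that do not overlap was 0 to 1 when each rat was left out, with the 1, Cyp4f5, appearing without control rat 4. The count of members with a higher mean was 10 to 22 of 36, with 10 without mulberry rat 4 and 22 without control rat 3. The difference of Cyp4a8 ran from -0.050 to 0.33 and was negative without control rat 2 (-0.0012) or mulberry rat 4 (-0.050). That of Cyp4f5 ran from -0.50 to 0.042 and was positive without control rats 2 (0.042), 3 (0.021) or 5 (0.030), and 0.023 with a pseudocount of 1 and no filter, an alternative added after the data were seen. That of Nqo1 ran from -0.052 without control rat 5 to 0.63. The cause was not tested. The correlation of Cyp2c11 and Cyp3a2 was 0.65 after quantile normalization, and that of Cyp2e1 and Cyp1a2 was 0.62 without the 2 farthest rats, where fewer rats were used. With the replicate number as a block (replicate block), 0 members were called, the mean was higher in 17 of 36 and the median of the differences was -0.0096. Rats of the same number correlated by 0.096, -0.20, -0.33, 0.067 and 0.086, so the numbers were not read as pairs. The remaining 633 values under these alternatives kept their direction and side of the threshold or, for counts and values with no test, moved by less than 1.5 times or by less than the spread between rats. Signal over background limits the 5 members under the filter, the dim Cyp4f5 and Cyp4f17, and Cux2, Cyp27b1 and S100a8 outside the members.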
